A study of Homo sapiens with 2 samples.

Results

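The transcripts described here encode enzymes of glycolysis, the pathway that splits glucose into pyruvate and yields ATP and NADH, and LDHA, which forms lactate. They were chosen by position: poly(A) sites, the places where an mRNA is cut and given its tail, were taken when they lay in both read tables and inside an hg19 interval around GAPDH, ENO1, PKM, LDHA, PGK1, TPI1, ALDOA, PGAM1 or GPI. The intervals held 11 of the 8880 sites found in both tables, and these sites carried 40044 of 2397922 reads. Of the 9 genes, 8 had a site: GAPDH, ENO1, PKM, LDHA and PGAM1 had 1 each, and PGK1, TPI1 and GPI had 2 each. No ALDOA site lay in its interval, and ALDOA is not analysed here. A gene is represented below by its site with the most reads, and the other site of PGK1, TPI1 or GPI is called its minor site.

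Glycolytic enzymes are made from abundant mRNAs in most dividing cells, and cancer cells often run the pathway at a high rate even when oxygen is present. Their mRNAs carry a poly(A) tail that is coated by cytoplasmic poly(A)-binding proteins, chiefly PABPC1 and its relative PABPC4. The bound protein is known to influence translation, to shield the tail and to take part in its shortening by deadenylases.

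Tails were read by nanopore direct RNA sequencing, in which the native RNA strand itself passes the pore, from HCT116, a human colon cancer line. All cells carried degron tags on endogenous PABPC1 and PABPC4, and a Sleeping Beauty transposon, present in several copies, with either PABP1212 (PABPC1 with RRM1 and RRM2, which bind RNA, duplicated) or PABPC1. The lines were polyclonal. Sorted cells had received doxycycline at 1 μg/mL and the auxin IAA (indole-3-acetic acid), which triggers the degron, at 0.5 mM, for 13 days, and were split by FACS into 4 gates of 25% by level of the transgene product. The uninduced cells were neither treated nor sorted. Each transgene had 1 library with 5 barcoded subsamples, uninduced, lowest, second-lowest, second-highest and highest level, and no subsample was repeated. The transgene is therefore the same as the library, and each level used the same set of adapters in both libraries, so neither pair can be told apart. The set held 3 barcodes at each sorted level, counted here as 1 subsample, and 1 barcode in uninduced cells. Depth ran from 139869 to 630986 reads per subsample in the PABP1212 library and from 65862 to 193416 in the PABPC1 library. Reads with a tail length of exactly 0 made up 0.604% to 2.25% of reads in the PABP1212 library and 0.278% to 1.18% in the PABPC1 library. In both libraries their share was largest at the second-highest level and next largest at the lowest level.

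The sites do not come with gene names. Around each member, the spacing to neighbouring sites within 1000 kb was compared with the spacing of annotated transcript ends in GENCODE v29 (GRCh38), with a tolerance of 30 nt. For each gene the annotated end that kept the most neighbours was used, out of 57 ends tried in all, so the count is a best case. The windows of GAPDH and TPI1 overlap, so a neighbour can be counted for both. Of 89 neighbours, 69 (77.5%) kept the annotated spacing at the ends used and 32 at the next best ends, while 0 lay at an annotated end when the 2 builds were overlaid without a shift. For PGK1 0 of 6 neighbours kept it, so the name of the PGK1 sites rests on the interval alone. Several of these genes have processed pseudogenes, and how reads were divided between such copies is not given in the sources used here. For 6 of the genes, the last 30 bases of the annotated transcript chosen by this spacing follow, since they hold the signal that places the tail. For GAPDH another annotated end kept as many neighbours, 18 of 20, and for ENO1 another kept 7 against 8, so the spacing does not single out their ends. These sequences come from the GENCODE v29 transcripts, 5′ to 3′. They end at the end of the annotated transcript, which need not be the measured site. The AATAAA hexamer, the main signal for cleavage and tailing, is in capitals.
GAPDH: accatcAATAAAgtaccctgtgctcaacca
TPI1: cccatgtgagggAATAAAcctggcactagg
GPI: catgtagaaaAATAAAgatgccacggagga
PGAM1: atcagtatAATAAAggagtgatgtgcaata
ENO1: AATAAAaagcctcagtgacccatgagaata
LDHA: ctaaaacccccAATAAAccttgaacagtga
AATAAA was present in the 6 windows shown, searched on the transcript strand only, and the PGK1 window, not shown because its name rests on the interval alone, held the variant ATTAAA and no AATAAA. The count does not cover all members. For scale, over 19652 protein-coding genes 51.0% of the windows of the same length held AATAAA and 63.0% held AATAAA or ATTAAA. The hexamer began 18 bases (TPI1) to 30 bases (ENO1) before the end of the annotated transcript.

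On the hg19 coordinates of the read tables, the GAPDH site was on chromosome 12 at 6647537, plus strand, with 16662 reads over all subsamples. The TPI1 site was on the same chromosome and strand at 6979992 with 2657 reads, and its minor site 27 nt downstream had 447. ENO1 was on chromosome 1 at 8921033, minus strand, with 6654 reads. PKM was on chromosome 15 at 72491372, minus strand, with 6537 reads. The other members had fewer reads. LDHA was on chromosome 11 at 18429394, plus strand, with 2772 reads, and PGAM1 was on chromosome 10 at 99193211, plus strand, with 1762. GPI was on chromosome 19 at 34891233, plus strand, with 830 reads and a minor site 26 nt downstream with 302. PGK1 was on chromosome X at 77381832, plus strand, with 819 reads and a minor site 68 nt upstream with 602.

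Tails of all 8 genes were longest at the lowest level of PABP1212 and shortest at one of its upper levels. GPI, which turns glucose phosphate into fructose phosphate at the head of the pathway, had median tails of 91, 144, 95, 84 and 84 nt in the PABP1212 library, from uninduced through the lowest to the highest level. In the PABPC1 library its medians were 111, 122.5, 120, 91 and 95 nt. GPI had the longest tails of the 8 genes at the lowest level of PABP1212, but on 41 reads, which gave a 95% interval of 125 to 186 nt. TPI1, which interconverts the triose phosphates, had medians of 90, 127, 95, 80 and 78 nt in the PABP1212 library. Its medians in the PABPC1 library were 90, 113, 90.5, 98 and 108 nt. The lowest level was again the longest with either transgene, and the upper levels of PABP1212 were shorter than uninduced cells while those of PABPC1 were longer.

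GAPDH, which oxidises glyceraldehyde phosphate and produces NADH, was the member with the most reads. Its median tail was 86, 106, 83, 64 and 66 nt in the PABP1212 library. In the PABPC1 library it was 91, 104, 88, 89 and 94 nt. The intervals of its medians at the second-highest and highest levels, 62 to 66 and 64 to 68 nt with PABP1212 against 85 to 92 and 89 to 101 nt with PABPC1, did not overlap between the libraries, whereas those at the lowest level, 99 to 114 and 97 to 111 nt, did. These intervals come from the order statistics of the reads and cover counting error only. Over all 914 sites with at least 10 reads in every subsample, the medians at the same 2 levels were also lower with PABP1212. They were 80 and 82 nt, against 99 and 99.5 nt with PABPC1. The share of all sites whose intervals did not overlap was not counted. At the lowest level the GAPDH intervals rest on fewer reads, 843 with PABP1212 and 393 with PABPC1. PGK1, which makes ATP from bisphosphoglycerate, had medians of 99, 132, 94, 88 and 84 nt in the PABP1212 library and 105, 128, 103, 125.5 and 99.5 nt in the PABPC1 library. At the lowest level PGK1 rested on 25 reads in the PABP1212 library and 15 in the PABPC1 library, and the intervals of its medians there were 115 to 177 nt with PABP1212 and 69 to 184 nt with PABPC1. PGAM1, which shifts the phosphate group within phosphoglycerate, had medians of 100, 135, 90, 73 and 83.5 nt in the PABP1212 library and 91, 101, 107, 95 and 109 nt in the PABPC1 library. Only for PGAM1, among the 8 genes, was the lowest level not the longest with PABPC1, and its intervals at all 5 subsamples of that library overlapped.

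ENO1, the enolase that forms phosphoenolpyruvate, had median tails of 89, 123, 87, 71 and 71 nt in the PABP1212 library. In the PABPC1 library its medians were 85, 112, 94, 93 and 95 nt. PKM, the pyruvate kinase that makes ATP in the last step, had medians of 91.5, 119, 92, 83 and 80 nt in the PABP1212 library. Its medians were 88, 112, 94, 98 and 93 nt in the PABPC1 library. PKM kept the longest tails of the 3 most abundant members at the upper PABP1212 levels, 78 to 83 nt by its interval at the highest level against 68 to 73 nt for ENO1 and 64 to 68 nt for GAPDH. LDHA, which reduces pyruvate to lactate and restores NAD, had medians of 83, 118, 79.5, 71 and 72 nt in the PABP1212 library and 81, 105.5, 83, 94 and 100 nt in the PABPC1 library.

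**Figure D1:**
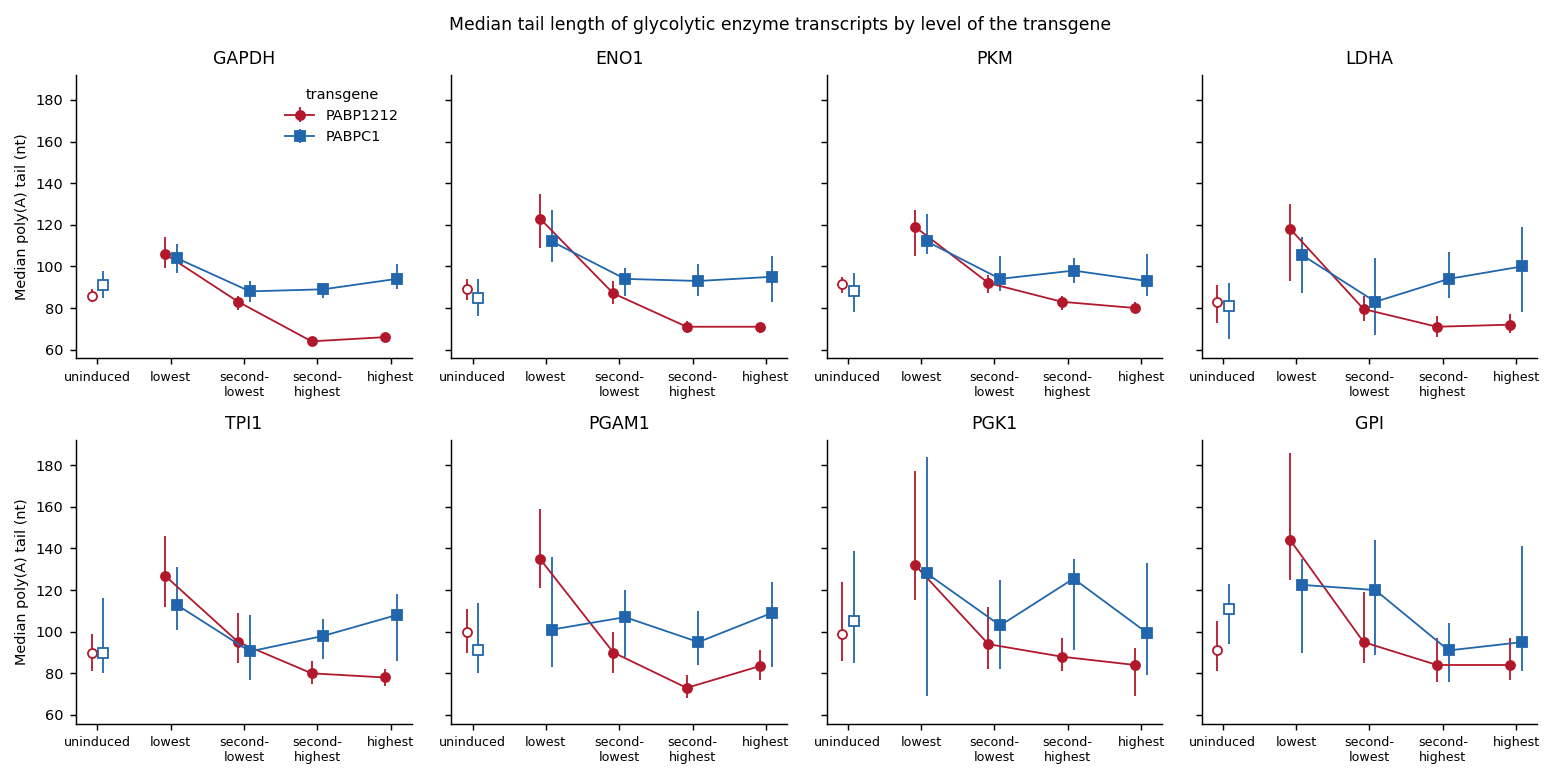
Median poly(A) tail length in nt (vertical axis) of each glycolytic gene by subsample (horizontal axis), with PABP1212 as red circles and PABPC1 as blue squares, open symbols for uninduced cells and bars for 95% order-statistic intervals over reads (counting error only). For GAPDH the upper PABP1212 levels sit at 64 and 66 nt, below the PABPC1 levels at 89 and 94 nt, while the lowest levels, 106 and 104 nt, overlap.

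At the lowest PABP1212 level the tails of 8 of 8 genes were longer than in uninduced cells, by 20 nt (GAPDH) to 53 nt (GPI) and a median of 34.5 nt. Of the 914 sites with at least 10 reads in every subsample, 91% were longer in that comparison, with a median change of 25.8 nt. With PABPC1 8 of 8 genes were likewise longer at the lowest level, by 10 nt (PGAM1) to 27 nt (ENO1) and a median of 23 nt, and 82.1% of all sites were longer, with a median of 20 nt. At the highest PABP1212 level 8 of 8 genes were shorter than in uninduced cells, by a median change of -13.5 nt, and so were 83.8% of all sites, with a median of -13.2 nt. At the highest PABPC1 level 6 genes were longer and 2 shorter than in uninduced cells, with changes of -16 nt (GPI) to 19 nt (LDHA), while 55.6% of all sites were longer. The direction in the glycolytic genes was thus that of most sites in each of these comparisons. As levels, the median of the 8 genes in the PABP1212 library was 90.5, 125, 91, 76.5 and 79 nt, beside 94.5, 120.5, 97, 80 and 82 nt over all 914 sites. In the PABPC1 library it was 90.5, 112, 94, 94.5 and 97.2 nt, beside 96, 116.5, 103, 99 and 99.5 nt over all sites. The glycolytic median was the higher one only at the lowest PABP1212 level.

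Whether tail length followed the amount of the transgene product was tested with limma over all 914 sites, on the mean of log2(nt + 1) with read weights, as the slope per level over the 4 sorted levels. With PABP1212 the tails of 3 of 10 member sites fell with level, those of GAPDH, ENO1 and TPI1, where 15.2% of all sites passed the test, all of them lower. The slope was -0.14 ± 0.03 log2 per level for GAPDH (SE, limma adjusted p = 0.0106), -0.15 ± 0.04 for ENO1 (limma adjusted p = 0.0137) and -0.16 ± 0.05 for TPI1 (limma adjusted p = 0.0371). All 10 member sites had a negative estimate. PKM had -0.09 ± 0.03 (limma adjusted p = 0.0741), LDHA -0.09 ± 0.04 (0.162), PGK1 -0.16 ± 0.09 (0.196), GPI -0.16 ± 0.09 (0.198) and PGAM1 -0.09 ± 0.07 (0.357). The minor sites of TPI1 and PGK1 had -0.12 ± 0.11 (0.375) and -0.01 ± 0.11 (0.917), and the GPI minor site had too few reads for the test. The median slope of the 8 genes was -0.14, beside -0.14 over all sites, and with each subsample's median over sites subtracted 0 of the 10 sites passed and the GAPDH slope was -0.0030. Among the 306 most deeply read sites, which hold 6 members, 41.8% of sites and 3 of the 6 members passed.

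The number of member sites past the threshold with PABP1212 depended on which reads and subsamples entered. With tails of exactly 0 left out it was 7 of 10, where 437 of all 914 sites passed against 139 with them, and PKM, LDHA, PGK1 and GPI were added at slopes of -0.12, -0.13, -0.16 and -0.18 log2 per level. It was 0 without the lowest PABP1212 level, where 11 of all sites passed and the slopes of GAPDH and ENO1 were -0.10 (limma adjusted p = 0.179) and -0.097. It was 0 without the second-lowest PABP1212 level (13 of all sites) and 0 without the highest PABPC1 level (71 of all sites), which bears on it through the shared estimate of the spread. It was 8 without the second-highest PABP1212 level, where 490 of all 914 sites passed, and 9 without the highest, where 665 did. Without the highest PABP1212 level the slopes were -0.28 for GAPDH, -0.32 for ENO1 and -0.28 for TPI1. No subsample was repeated, so the test measures the scatter around a straight line, which may be technical.

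With PABPC1 0 of 10 member sites passed the limma test, as did 0% of all sites, and 0 members and 15 of all sites had an unadjusted p under 0.05. Of the member sites 8 had a negative slope and 2 a positive one. GAPDH had -0.04 ± 0.06 log2 per level, ENO1 -0.08 ± 0.08 and TPI1 0.02 ± 0.10, and the median over the 8 genes was -0.05, beside -0.08 over all sites. The TPI1 slope was negative, -0.0056, with tails of 0 left out. The difference between the slopes, PABP1212 minus PABPC1, passed for 0 of 10 member sites and 0% of all sites, with 0 members and 2 of all sites at an unadjusted p under 0.05. It was -0.10 ± 0.07 for GAPDH, -0.08 ± 0.09 for ENO1 and -0.17 ± 0.11 for TPI1 (limma adjusted p = 0.996 in each case). A difference in slope between the transgenes was therefore not detected for these transcripts with 4 levels each. With the level as a block over both libraries, an alternative chosen after seeing the data that leaves 2 residual degrees of freedom, it was -0.13 ± 0.03 for GAPDH (limma adjusted p = 0.0721), -0.12 ± 0.04 for ENO1 (0.237) and -0.20 ± 0.06 for TPI1 (0.235), and 0 of 10 member sites and 1 of all 914 passed. Without the highest PABP1212 level 4 member sites passed, GAPDH, ENO1, TPI1 and PGAM1, as did 139 of all 914 sites.

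The mean of the 4 sorted levels minus uninduced cells, called the replacement change below, also holds the effects of doxycycline, IAA and sorting, which cannot be told apart from replacement. It also sets 3 barcodes per sorted level against 1 in uninduced cells. For tails, 0 of 10 member sites and 0% of all sites passed with PABP1212, and 0 and 0% with PABPC1. At an unadjusted p under 0.05 there were 1 member and 34 sites in all with PABP1212, and 0 members and 1 site in all with PABPC1. GAPDH was the member at that p with PABP1212, at -0.24 ± 0.09 log2 (limma adjusted p = 0.99). With PABPC1 GAPDH had -0.06 ± 0.15 log2. This mean combines the lowest PABP1212 level, where GAPDH tails were longer than in uninduced cells, with the upper levels, where they were shorter. Without the highest PABP1212 level 3 member sites and 66 of all 914 sites passed with PABP1212.

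**Figure D2:**
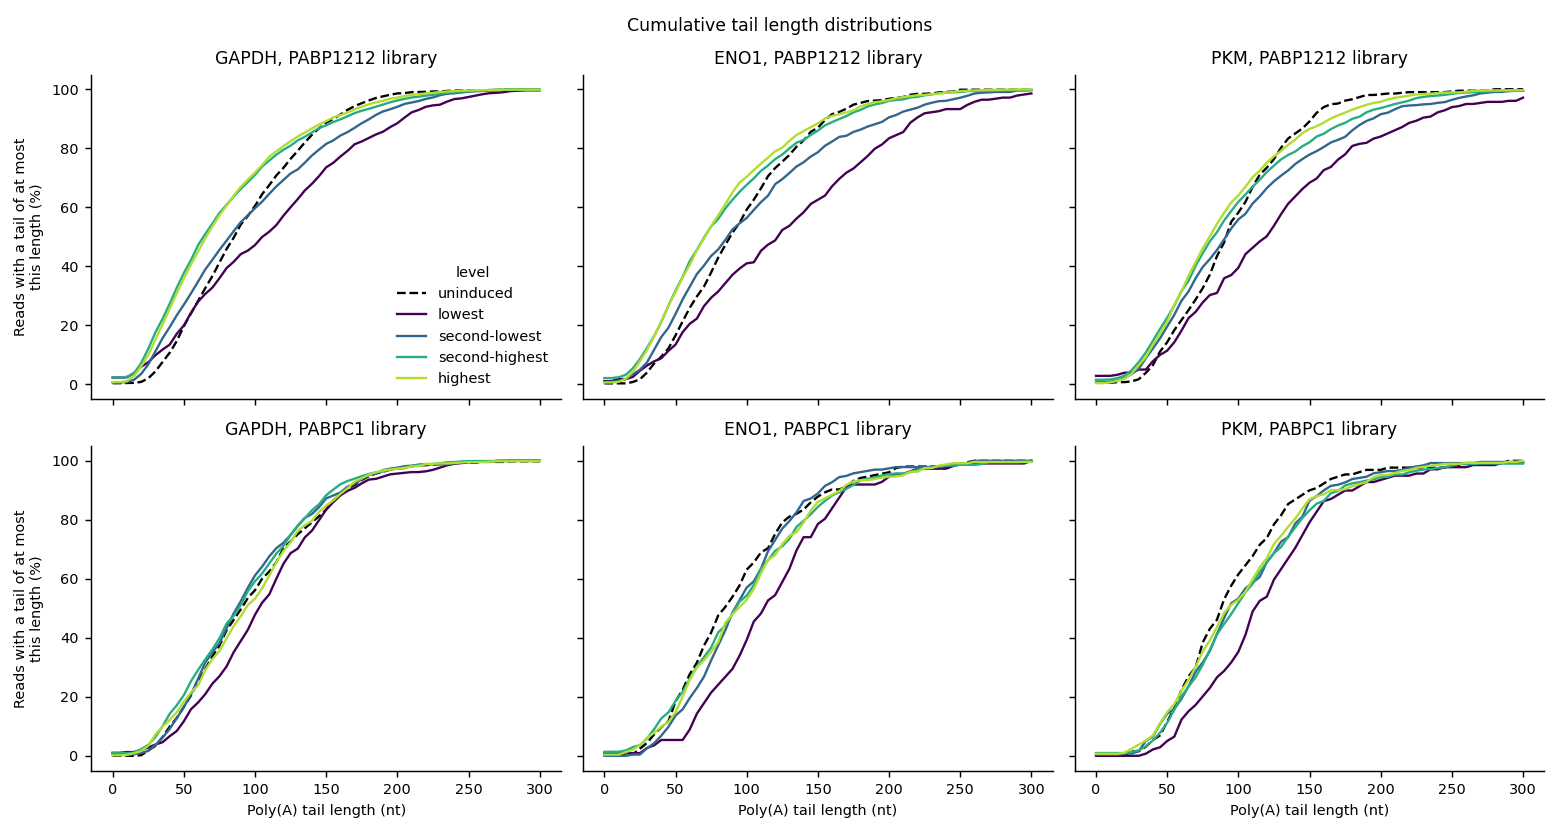
Cumulative share of reads in percent (vertical axis) by tail length in nt (horizontal axis) for GAPDH, ENO1 and PKM, with the PABP1212 library above and the PABPC1 library below, dashed black for uninduced cells and dark to light for the lowest to the highest level. The PABP1212 curves fan out, with GAPDH medians of 106, 83, 64 and 66 nt over the sorted levels, and the PABPC1 curves of all levels but the lowest lie close together, at 88, 89 and 94 nt.

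In the PABP1212 library GAPDH and ENO1 had more short tails than uninduced cells at all 4 sorted levels, with the largest shares at the upper 2. Their shares of long tails were largest at the lower 2. For ENO1 the intervals of the short share at the lowest level and in uninduced cells, 3.54% to 9.44% and 2.13% to 5.06%, overlapped. For GAPDH, tails under 30 nt made up 3.67%, 9.37%, 10.6%, 16.6% and 14.1% of reads in the PABP1212 library, from uninduced to the highest level, and 3.16%, 3.82%, 3.31%, 5.95% and 6.49% in the PABPC1 library. The exact Clopper-Pearson intervals of the highest PABP1212 level and of uninduced cells, 13.0% to 15.2% and 2.81% to 4.70%, did not overlap. Tails of at least 150 nt made up 11.4%, 26.6%, 19.0%, 12.4% and 11.0% of GAPDH reads in the PABP1212 library and 16.9%, 17.0%, 13.2%, 12.2% and 15.3% in the PABPC1 library. GAPDH thus had more short and more long tails at the lowest PABP1212 level than in uninduced cells, while at the upper 2 levels the intervals of its long share overlapped that of uninduced cells. ENO1 had short tails at 3.37%, 6.01%, 7.03%, 11.7% and 10.7% and long tails at 13.5%, 37.5%, 21.6%, 14.1% and 11.8% in the PABP1212 library. PKM had fewer short tails, at most 6.48%, and its long tails reached 32.0% at the lowest PABP1212 level. GAPDH tails of exactly 0 made up 0.367%, 2.25%, 0.584%, 2.27% and 0.706% of reads in the PABP1212 library, so part of the short share moved with them. With a cutoff of 20 nt the highest level minus the lowest gave -0.351 percentage points in the PABP1212 library and -0.601 in the PABPC1 library, against 4.70 and 2.67 points with 30 nt. The part of reads with no tail in the short shares was not tested.

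Over the 8 genes, the median share of short tails in the PABP1212 library was 1.92%, 5.48%, 6.07%, 9.12% and 7.83%, against 5.21%, 6.67%, 9.09%, 13.7% and 12.2% for the median of all 914 sites. In the PABPC1 library it was 1.71%, 1.58%, 1.63%, 4.23% and 2.62%, against 4.39%, 2.38%, 3.93%, 6.43% and 5.88%. The glycolytic median was below that of all sites in all 10 subsamples, and GAPDH was the gene with the largest share at every sorted level of PABP1212. The median share of long tails was 13.1%, 38.2%, 21.7%, 15.2% and 13.9% in the PABP1212 library and 10.9%, 21.9%, 14.5%, 16.4% and 16.2% in the PABPC1 library. For the median of all sites it was 17.7%, 37.9%, 25.9%, 18.8% and 18.1% with PABP1212, and 18.2%, 28.6%, 21.6%, 19.6% and 21.6% with PABPC1. The width of the distributions also differed between levels: the interquartile range, as a median over the 8 genes, was 66.2, 97.5, 87.5, 73.8 and 68.5 nt in the PABP1212 library and 56.8, 63.9, 63.8, 69.0 and 72.2 nt in the PABPC1 library. It was widest at the lowest level with PABP1212, and at the highest level with PABPC1. The same held for the median of all 914 sites, at 72, 110.5, 95.5, 84.8 and 81.9 nt with PABP1212 and 69.5, 74, 71.5, 76.5 and 77 nt with PABPC1.

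**Figure D3:**
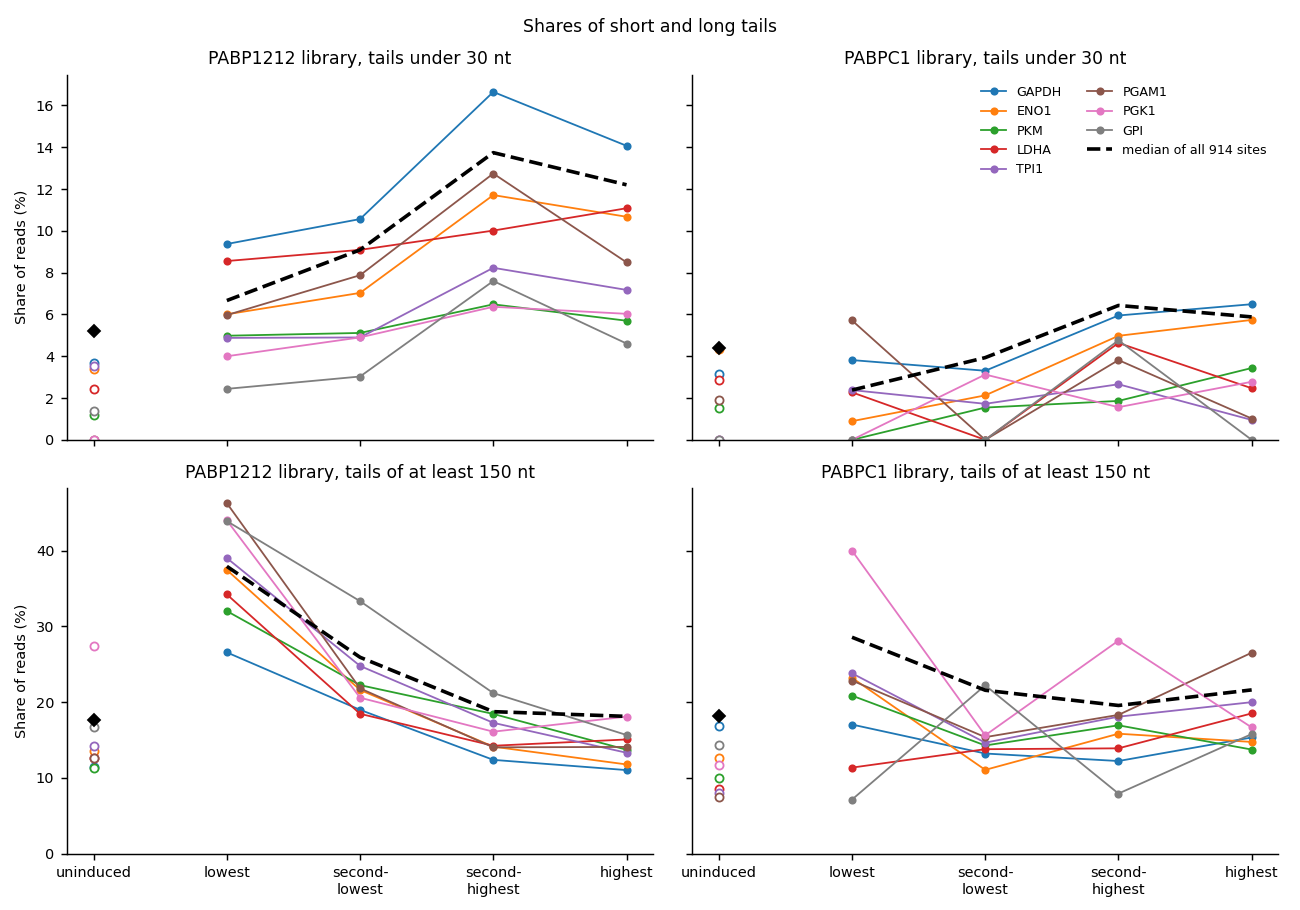
Share of reads in percent (vertical axes) with tails under 30 nt (top) and of at least 150 nt (bottom) by subsample, with the PABP1212 library on the left and the PABPC1 library on the right. Lines join the sorted levels of each gene, open circles are uninduced cells, and the dashed line and black diamond are the median of all 914 sites. GAPDH short tails reach 16.6% at the second-highest PABP1212 level and 5.95% at that level of PABPC1.

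The minor sites of PGK1, TPI1 and GPI show whether the choice of end moved with the tails. The minor PGK1 site took 37.3% to 50% of PGK1 reads in the PABP1212 library and 27.3% to 43.4% in the PABPC1 library. That of TPI1 took 11.7% to 15.2% and 13.0% to 19.2%, and that of GPI 14.6% to 30.3% and 17.6% to 32.5%. For the gene with the most reads of the 3, TPI1, the exact intervals of all 10 subsamples overlapped. The tails at the minor TPI1 site were 79, 114, 82, 76 and 78.5 nt in the PABP1212 library and 111, 118.5, 85, 105 and 60 nt in the PABPC1 library, the last on 19 reads. At the minor PGK1 site they were 114, 109, 92, 78 and 85 nt in the PABP1212 library. Of the 10 member sites in the tail test, only this one had a longer median in uninduced cells than at the lowest PABP1212 level. The lowest level rested on 25 reads there, and the intervals, 98 to 141 nt in uninduced cells and 80 to 167 nt at the lowest level, overlapped. The minor PGK1 site had 124, 125, 112.5, 119 and 90.5 nt in the PABPC1 library. The minor GPI site had 5 to 93 reads per subsample, so its medians are not compared.

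Reads per site also give the relative abundance of each mRNA, here in CPM (the reads at a site over all reads of the subsample, on a common total) after median-ratio scaling between subsamples and with no division by length, since each read stands for 1 RNA strand. In bulk RNA, fewer cells of a kind and less RNA per cell cannot be told apart. Together the 11 sites held 1.71%, 1.36%, 1.59%, 1.76% and 1.84% of reads in the PABP1212 library and 1.72%, 1.25%, 1.44%, 1.49% and 1.53% in the PABPC1 library. The share was smallest at the lowest level in both libraries. GAPDH had 8480, 5396, 6560, 7059 and 7480 CPM in the PABP1212 library. In the PABPC1 library it had 8477, 5611, 5969, 6266 and 6619 CPM. It was highest in uninduced cells with either transgene, and within the sorted cells lowest at the lowest level.

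ENO1 had 3384, 1812, 2453, 3016 and 3182 CPM in the PABP1212 library and 3246, 1599, 2318, 2289 and 2382 CPM in the PABPC1 library. PKM had 2149, 1799, 2497, 3005 and 3180 CPM in the PABP1212 library and 2048, 1984, 2555, 2781 and 2841 CPM in the PABPC1 library. PKM and the PGK1 site with the most reads, unlike GAPDH and ENO1, were above their uninduced values at the upper 3 levels of both transgenes. The minor PGK1 site was not. It had 317, 160.0, 236, 252 and 308 CPM in the PABP1212 library, and 205, 143, 118, 254 and 234 CPM in the PABPC1 library. PGAM1 had 867, 429, 527, 733 and 912 CPM in the PABP1212 library and 835, 499.7, 641, 678 and 957 CPM in the PABPC1 library. LDHA had 1271, 1197, 1124, 1234 and 1366 CPM in the PABP1212 library and 1103, 628, 858, 782 and 791 CPM in the PABPC1 library. LDHA was below its uninduced value at 3 of the 4 PABP1212 levels and at all 4 PABPC1 levels. TPI1 had 1168, 787, 1108, 1174 and 1202 CPM in the PABP1212 library and 1371, 599.6, 1144, 974 and 1025 CPM in the PABPC1 library. PGK1 had 322, 160.0, 326, 423 and 350.2 CPM in the PABP1212 library and 268, 214, 316, 331 and 351 CPM in the PABPC1 library. GPI had 374, 262, 316, 396 and 382 CPM in the PABP1212 library and 441, 199.9, 266, 326 and 185 CPM in the PABPC1 library.

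At the lowest PABP1212 level 8 of 8 genes were less abundant than in uninduced cells, with a median difference of -0.61 log2, and 73.5% of the 801 sites with a mean of at least 50 reads were lower, with a median of -0.41. At the lowest PABPC1 level 8 of 8 genes were lower too, with a median of -0.78 log2, against 66.2% of all sites and a median of -0.31. Between the highest and the lowest level, 8 of 8 genes were higher at the highest with PABP1212, by a median of 0.71 log2, beside a median of 0.34 over all sites, of which 73% were higher. With PABPC1 7 of 8 were higher, GPI being the exception, by a median of 0.55, beside 0.25 over all sites, of which 68% were higher.

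**Figure D4:**
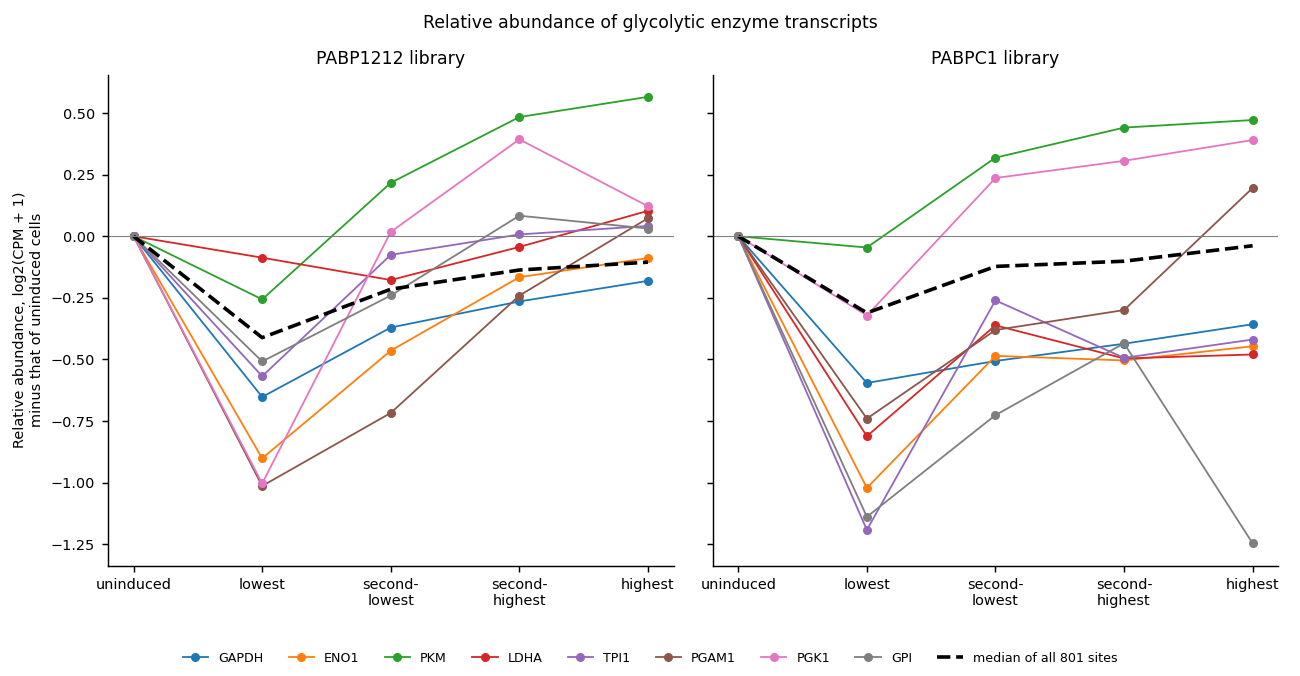
Relative abundance as log2(CPM + 1) minus that of uninduced cells (vertical axis) by subsample (horizontal axis), with the PABP1212 library on the left and the PABPC1 library on the right, 1 line per gene and the median of all 801 sites as a dashed black line. All 8 genes, each by its site with the most reads, lie below 0 at the lowest level of both transgenes. PKM and PGK1 lie above 0 at the upper 3 levels, and the minor PGK1 site is not drawn.

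In the limma test over the 801 sites, the abundance of 5 of 9 member sites rose with the level of PABP1212, against 19% of all sites that rose. PGAM1 rose by 0.37 ± 0.07 log2 per level (SE, limma adjusted p = 0.00783), PKM by 0.27 ± 0.06 (0.0106), ENO1 by 0.27 ± 0.07 (0.0133), GAPDH by 0.15 ± 0.05 (0.0323) and PGK1 by 0.38 ± 0.12 (0.0352). All 9 estimates were positive. TPI1 had 0.19 ± 0.09 (limma adjusted p = 0.155), GPI 0.19 ± 0.12 (0.235), LDHA 0.07 ± 0.07 (0.492) and the minor PGK1 site 0.29 ± 0.13 (0.118). The median slope of the 8 genes was 0.23, beside 0.12 over all sites. Of the 267 most deeply read sites, 40.8% passed in either direction, as did 4 of the 6 members among them. Without the lowest PABP1212 level 0 member sites passed, with 1 of all 801 sites, and the slopes of GAPDH, ENO1, PKM and PGK1 were 0.09, 0.19, 0.17 and 0.05. The PGK1 slope was 0.70 without the highest PABP1212 level. With sites down to a mean of 10 reads in the test, 0 member sites passed, and 8 of 4277 sites did, where the slopes of these genes were the same and the adjusted p of PGAM1 was 0.0696. Scaling by total reads left 3 member sites past the threshold, PGAM1, PKM and ENO1, and 114 of all sites against 178, and 73.7% of all calls were then higher, against 85.4% with median-ratio scaling. Without the second-highest PABP1212 level 3 member sites and 105 of all sites passed.

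With PABPC1 1 of 9 member sites rose with level, PGAM1 at 0.29 ± 0.07 log2 per level (limma adjusted p = 0.0265), against 9.99% of all sites that rose. PKM had 0.17 ± 0.06 (limma adjusted p = 0.0811), ENO1 0.17 ± 0.07 (0.0901), TPI1 0.21 ± 0.09 (0.13), GAPDH 0.08 ± 0.05 (0.256), PGK1 0.22 ± 0.12 (0.202), LDHA 0.09 ± 0.07 (0.423) and GPI -0.0030 ± 0.12 (0.987). The minor PGK1 site had 0.32 ± 0.13 (limma adjusted p = 0.095). The median over the 8 genes was 0.17, beside 0.08 over all sites. Of the 267 most deeply read sites, 13.9% passed in either direction, as did 1 of the 6 members among them. The PGAM1 call was lost with sites down to a mean of 10 reads (adjusted p = 0.0533) and with voom weights (0.0966), where 91 of 4277 and 26 of 801 sites passed. No member site passed without the lowest, the second-highest or the highest PABPC1 level, where 6, 15 and 17 of all 801 sites did. Without the second-lowest PABPC1 level 4 member sites and 225 of all sites passed, and without the lowest PABP1212 level 2 and 134, against 104 of all sites with every subsample. With scaling by total reads 64% of all calls were higher, against 76.9%. The slope of LDHA was -0.06 and that of TPI1 -0.08 without the lowest PABPC1 level. The difference between the slopes, PABP1212 minus PABPC1, passed for 0 of 9 member sites and 0% of all sites by limma, with 0 members and 53 of all sites at an unadjusted p under 0.05. It was 0.07 ± 0.07 for GAPDH, 0.10 ± 0.09 for ENO1 and -0.02 ± 0.13 for TPI1, and the sign for TPI1 was positive, at 0.0079, with the reads of both its sites pooled.

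**Figure D5:**
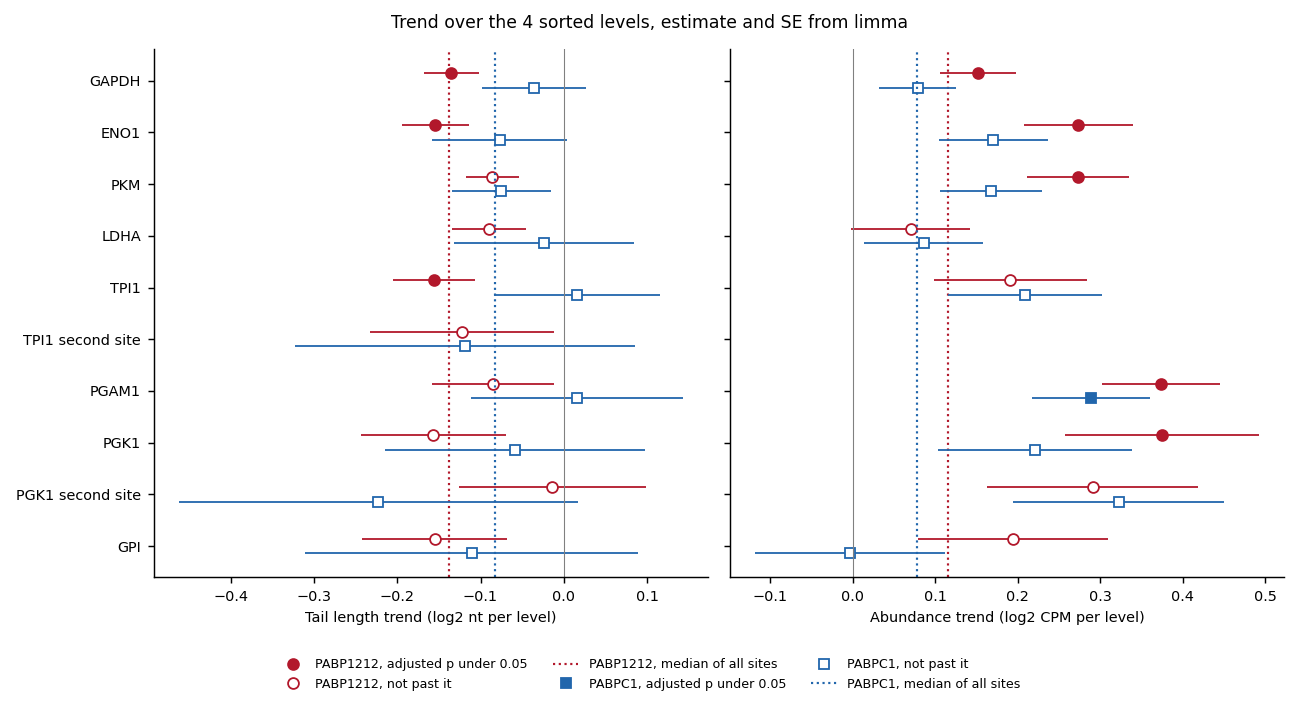
Slope per level over the 4 sorted levels (horizontal axes) of tail length in log2 nt (left) and of relative abundance in log2 CPM (right) for each member site, with SE bars, red circles for PABP1212 above blue squares for PABPC1, and filled symbols for a limma adjusted p under 0.05. Dotted lines are the medians of all sites, -0.14 and -0.08 for tails and 0.12 and 0.08 for abundance. GAPDH and ENO1 are filled for PABP1212 in both panels, with tails lower and abundance higher at higher levels.

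Compared with uninduced cells, 4 of 9 member sites fell in abundance in sorted PABPC1 cells, against 15.2% of all sites that fell. Among the 267 most deeply read sites, which hold 6 members, 34.8% of sites passed in either direction, as did 3 of the 6 members. GAPDH fell by 0.47 ± 0.12 log2 (limma adjusted p = 0.011), ENO1 by 0.61 ± 0.16 (0.0163), GPI by 0.89 ± 0.29 (0.0351) and LDHA by 0.54 ± 0.18 (0.0412). TPI1 had -0.59 ± 0.23 (limma adjusted p = 0.0751) and PGAM1 -0.31 ± 0.18 (0.219). PKM had a positive change, 0.30 ± 0.15 (0.168), and so did PGK1, 0.15 ± 0.29 (0.731). The minor PGK1 site had a negative one, -0.20 ± 0.32 (0.674), so the sites of PGK1 differed in sign. With sites down to a mean of 10 reads, and with voom weights, 2 member sites passed, GAPDH and ENO1, beside 551 of 4277 and 112 of 801 sites. With the library fitted alone 2 members and 166 of all sites passed, and without the highest PABPC1 level 1 and 137, against 201 with every subsample. The GPI change was -0.59 without the highest PABPC1 level. With scaling by total reads GAPDH and ENO1 passed as lower and PKM as higher, at 0.40 ± 0.13 (limma adjusted p = 0.0388), while of all calls 52.1% were higher, against 39.3% with median-ratio scaling.

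In sorted PABP1212 cells 0 of 9 member sites passed in that comparison by limma, against 10.5% of all sites that fell and 2% that rose, with 3 members at an unadjusted p under 0.05. GAPDH had -0.37 ± 0.12 log2 (limma adjusted p = 0.0512), PGAM1 -0.47 ± 0.18 (0.0864), ENO1 -0.40 ± 0.16 (0.115) and PKM 0.25 ± 0.15 (0.288). The minor PGK1 site had -0.44 ± 0.32 (limma adjusted p = 0.385). Scaling by total reads moved the median of all sites in this comparison to -0.04 log2, against -0.21 with median-ratio scaling. Of all calls 48% were then higher, against 16%. The estimates of LDHA, PGK1, TPI1 and GPI, which lay between -0.05 and -0.16, were positive under that scaling. With median-ratio scaling GAPDH, PGAM1 and ENO1 lay below the median of all sites, and PKM above it. The median of the 267 most deeply read sites was itself lower, at -0.36 log2. With voom weights 1 member site and 168 of all sites passed, against 100, and leaving out a subsample gave 0 to 2 member sites.

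The members lay at different distances from their own median tail profile, which each of them helps to set. Over the 10 subsample values of mean log2(nt + 1), the root mean square distance to the median profile of the 8 genes was 0.0554 log2 for TPI1, 0.0702 for PKM, 0.0828 for ENO1, 0.0947 for PGAM1 and 0.111 for LDHA. It was 0.180 for GAPDH, 0.181 for PGK1 and 0.192 for GPI. Of the 904 sites outside the set, which do not enter that profile, the 5 closest to it were on chromosome 15 at 66791619 (0.0491 log2), chromosome 11 at 319617 (0.0626), chromosome 17 at 79476955 (0.0677), chromosome 7 at 5566779 (0.0679) and chromosome 11 at 67165654 (0.0690), all on the minus strand. GAPDH, with the most reads, was thus farther from the median profile than most of the other genes. By the median, its tails were the shortest of the 8 at the lowest, second-highest and highest PABP1212 levels. Which subsamples set the distance was not tested.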

How the data were processed

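The deposited tables list every read with the subsample it belongs to, a poly(A) site and the tail length in nt. Per the submitters' processing notes, minimap2, Bowtie2 and hg38 were used, with no version or role; the positions of the sites, however, follow hg19, and no position was converted. How bases and tail lengths were called is not given in the sources used here. The labels' protocols give kit SQK-RNA004, total RNA and custom barcoded adapters. Reads of a sample name that the deposited barcode table does not list (5.63% of the PABP1212 library and 2.86% of the PABPC1 library) entered no comparison.

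The named genes are the members by their site with the most reads, and their other sites with at least 10 reads in every subsample; outside sites were named by closeness of profile. The members, lists and tests were chosen with earlier results of these data known. Other pathway genes, cell line markers and the PABPC1 and PABPC4 transcripts were not analysed here, because no hg19 annotation was used, and 1 of the transcript ends is not reported here.

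Tail tests took each site's mean log2(nt + 1), with read numbers as weights, over 914 sites with at least 10 reads in every subsample. Abundance was counted from the reads, scaled by median ratios to a geometric-mean reference of 5662 sites, and tested as log2(CPM + 1) with a variance trend over 801 sites with a mean of at least 50 reads. Both fits used limma 3.58.1 in R 4.3.3; the terms were the library and, inside each library, replacement and the centred level, leaving 4 residual degrees of freedom, and Benjamini-Hochberg adjustment over all sites, threshold 0.05. The fits assume that uninduced subsamples, 1 per library, vary as much as sorted ones. Intervals are exact (95%) and cover counting error only. Matplotlib 3.10.9, SciPy 1.17.1, pandas 2.3.3 and NumPy 2.4.6 ran under Python 3.11.15. Alternatives varied weights, tails of 0, the log scale, read minimums, scaling, pooling of sites, voom and each subsample, and, added after seeing the data, the level as a block.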

Additional observations from a re-analysis of the deposited data

How the results depend on the processing

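Where the reported count of member sites was above 0, it kept within 1.5 times under 42 of 67 alternatives, was above it under 8 and below it under 17. Where it was 0, it was above 0 under 6 of 109, and a count of 0 cannot fall. With PABP1212, the tail trend was called at 7 member sites with tails of 0 left out, 7 with tails under 10 nt left out, 5 with the log2 of the site median, 6 on the linear scale and 0 with subsample medians subtracted, where over all sites 437, 429, 276, 407 and 10 were called, against 139. Leaving out a subsample gave 0 to 9 member sites for the PABP1212 tail trend, 0 to 4 for the tail trend difference and 0 to 3 for the PABP1212 tail replacement change. For abundance, the PABP1212 trend was called at 3 member sites with scaling by total reads and 0 with a mean of at least 10 reads (8 sites in all, against 178), and at 0 to 7 with a subsample left out. The PABPC1 trend was called at 0 with a mean of at least 10 reads, 0 with voom weights and 0 to 4 with a subsample left out. The PABP1212 replacement change was called at 1 with voom weights and 0 to 2 with a subsample left out, and the PABPC1 one at 2 with a mean of at least 10 reads, 2 with voom weights, 2 with each library fitted alone and 1 to 5 with a subsample left out. The cause was not tested in any of these.

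Single estimates that the text gives changed sign as follows. They cover GAPDH, ENO1 and TPI1 for the PABPC1 tail trend, both trend differences and the tail replacement changes, and all member sites elsewhere. Of 617 estimates of the other members in those 5 comparisons, 61 changed sign. With subsample medians subtracted the PABP1212 tail trend was 0.038 for PKM, 0.047 for LDHA, 0.11 for the minor PGK1 site, 0.0031 for the minor TPI1 site and 0.031 for PGAM1, the PABPC1 tail trend of GAPDH was 0.042, and the PABP1212 tail replacement change of TPI1 was 0.070. The PABPC1 tail trend of TPI1 was -0.0039 without weights, -0.0056 with tails of 0 or under 10 nt left out and -0.0058 with sites pooled. The PABP1212 tail replacement change of TPI1 was 0.0086 with tails of 0 left out, 0.019 with tails under 10 nt left out, 0.0074 with the log2 of the median, 5.37 nt on the linear scale and 0.00070 with sites pooled, and that of ENO1 was 0.812 nt on the linear scale. The PABPC1 tail replacement change of GAPDH was 0.021 with the log2 of the median. That of TPI1 was 0.018 without weights, 0.048 with tails of 0 or under 10 nt left out, 0.13 with the log2 of the median, 0.014 with pseudocount 10 and 5.94 nt on the linear scale. The PABPC1 abundance trend of GPI was 0.014 with voom weights, and the abundance trend difference of TPI1 was 0.0079 with sites pooled. With scaling by total reads the PABP1212 abundance replacement change was 0.12 for LDHA, 0.057 for PGK1, 0.027 for TPI1 and 0.016 for GPI. The GAPDH share of tails under 20 nt, highest minus lowest level, was -0.351 points with PABP1212 and -0.601 with PABPC1.

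With a subsample left out, the tail trend with PABP1212 ran from -0.39 to 0.092 for the minor PGK1 site and from -0.37 to 0.022 for PGAM1. With PABPC1 it ran from -0.10 to 0.019 for GAPDH and from -0.070 to 0.068 for TPI1, and the tail trend difference of ENO1 ran from -0.24 to 8.1e-05. The tail replacement change of TPI1 ran from -0.090 to 0.015 with PABP1212 and from -0.056 to 0.029 with PABPC1. The PABPC1 abundance trend ran from -0.059 to 0.16 for LDHA, from -0.079 to 0.35 for TPI1 and from -0.26 to 0.35 for GPI. The abundance trend difference of TPI1 ran from -0.16 to 0.27, and the PABP1212 abundance replacement change of PGK1 from -0.23 to 0.15.

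The labels give no replicate numbers, so no block by replicate could be fitted. With the level as a block over both libraries, chosen after seeing the data, the trend differences were called at 0 member sites for tails and 0 for abundance (1 of 914 and 14 of 801 sites in all). Depth limits the minor sites and the PABPC1 library most: at the lowest PABPC1 level GPI rested on 14 reads and PGK1 on 15. The tests have 4 residual degrees of freedom over 10 subsamples.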
